A study of Mus musculus with 6 samples.

Results

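The dual-specificity MAP kinase phosphatases were followed in activated CD4+ T cells with and without the histone deacetylase HDAC1. The 8 members were Dusp1, Dusp2, Dusp4, Dusp5, Dusp6, Dusp7, Dusp10 and Dusp16, found by gene name among 55536 genes of the deposited count table. Dusp2 was chosen because its counts were lower in HDAC1-cKO cells in this same comparison, so its values are given as a description with no test. The other 7 were listed as its relatives and were tested. RNA was sequenced from 500 sorted cells in each of 6 libraries, 3 HDAC1-cKO and 3 WT. HDAC1-cKO cells were 2D2-Hdac1fl/fl-Cd4-Cre+, and WT cells were 2D2-Hdac1fl/fl-Cd4-Cre-. Both carried the floxed Hdac1 alleles and 2D2, a transgenic T cell receptor that recognises the myelin protein MOG, on C57BL/6. The age of the mice is not given in the labels. The cells of both groups had been injected while naive, and bearing the CD45.2 allele, into CD45.1+ mice. The recipients were immunised in the footpad with MOG35-55 in complete Freund's adjuvant 18 hours later, and cells were taken from popliteal lymph nodes after 4 further days. Each library pooled 2 mice. Cd4-driven Cre acts from thymic development onward, thus before transfer and not in CD4+ cells alone. The WT cells carried no Cre, so that Cre and the loss of HDAC1 cannot be told apart.

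T cell receptor signals reach the nucleus in part through the MAP kinases ERK, JNK and p38, which are switched on when a threonine and a tyrosine of their activation loop are both phosphorylated. MAP kinase phosphatases remove both phosphates and so end the signal. Several are themselves immediate or delayed targets of ERK, which makes a feedback loop. Dusp1, Dusp2, Dusp4 and Dusp5 encode inducible nuclear enzymes. Dusp6 and Dusp7 encode cytoplasmic enzymes directed at ERK, and Dusp10 and Dusp16 encode enzymes directed at JNK and p38.

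The promoters of 3 members are shown because these genes stood for the range of patterns described below. Dusp2 was the most abundant member and was lower in HDAC1-cKO cells, Dusp6 had the library profile nearest to that of Dusp2, and Dusp1 had slightly higher values in HDAC1-cKO cells. RefSeq promoter windows on GRCm38.p6 matched 7 of the 8 members by symbol. Of the 300-base RefSeq entries, the 250 bases before the RefSeq start were searched, and distances are counted from that start. For Dusp1 it lies inside the longer gene given in the count table, and for Dusp5 the window runs past the start in that table. The stretches below read 5′ to 3′ on the gene's strand and cover chr2:127335909-127336158 (plus strand) for Dusp2, chr10:99262981-99263230 (plus strand) for Dusp6 and chr17:26508520-26508722 (minus strand) for Dusp1. Capitals mark cAMP response elements (TGACGTCA), their half-sites (TGACG) and E-boxes (CACGTG), searched on both strands.
Dusp2: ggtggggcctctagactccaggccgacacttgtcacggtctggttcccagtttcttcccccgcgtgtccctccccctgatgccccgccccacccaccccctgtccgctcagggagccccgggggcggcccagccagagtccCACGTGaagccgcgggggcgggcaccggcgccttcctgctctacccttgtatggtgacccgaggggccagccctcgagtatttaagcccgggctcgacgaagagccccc
Dusp6: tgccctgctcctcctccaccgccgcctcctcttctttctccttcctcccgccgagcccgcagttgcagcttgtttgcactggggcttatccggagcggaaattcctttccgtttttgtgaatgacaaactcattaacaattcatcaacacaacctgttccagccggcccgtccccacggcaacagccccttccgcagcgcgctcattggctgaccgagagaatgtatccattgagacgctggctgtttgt
Dusp1: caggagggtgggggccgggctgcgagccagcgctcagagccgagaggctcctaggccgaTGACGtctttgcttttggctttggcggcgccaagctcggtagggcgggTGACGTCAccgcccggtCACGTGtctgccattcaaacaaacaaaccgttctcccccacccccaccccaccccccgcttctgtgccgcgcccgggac
The Dusp1 stretch is 203 bases long, since the last 47 bases of its window lie in annotated exons.

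The Dusp1 window held a full cAMP response element from 143 to 136 bases before the start, a feature of 1.55% of 32851 RefSeq windows of the same length. It also held 3 half-sites, 2 of them within that element, against 17.8% of windows with at least 1 half-site. The windows of Dusp5 and Dusp16 held 1 half-site each. Dusp1 and Dusp2 each held an E-box, which occurred in 6.02% of windows, at 126 to 121 and at 109 to 104 bases before the start. Dusp6 held none of these motifs. An AP-1 site (TGANTCA) occurred in 6.75% of windows and a TATA box (TATAAA) in 12.4%, and neither was in the 3 windows. The Dusp5 window held 2 CArG boxes, the motif bound by serum response factor, against 1.47% of windows with any, but all 250 bases of that window lie in annotated exons. The windows of Dusp2 and Dusp1 were rich in G and C, at 70.4% and 68.4%, and that of Dusp6 had 56.4%. These matches describe letters and not sites in use.

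Total counts ran from 19956153 to 36307610 in HDAC1-cKO and from 39036751 to 55900237 in WT libraries. Levels are given in FPKM, deposited fragments per kilobase of transcript, scaled for depth, which allow genes to be compared per length. Hdac1 measured 8.35, 7.07 and 7.48 FPKM in the HDAC1-cKO libraries and 113, 114 and 119 FPKM in WT, low in every library labelled HDAC1-cKO. HDAC1-cKO replicate 2 stood apart. Its counts were higher for genes rich in G and C (Pearson r across genes = 0.55, against -0.263 to -0.054 in the other libraries over 10890 genes), and 0.922% of its counts were mitochondrial against 1.34% to 1.67%. All 10 T cell defining markers were detected. They summed to 24966 to 34044 CPM (counts relative to the library's scaled total) in HDAC1-cKO and 29267 to 35070 CPM in WT. Most of that sum was Trbc2, at 17567 to 24838 CPM against 20662 to 24773 CPM. By edgeR 2 were called lower in HDAC1-cKO, Cd3e and Cd2, against 0.992% of all tested genes, and 0 higher, against 0.979%. Of the 10 log2 differences 9 were negative, with a median of -0.27. HDAC1-cKO lay entirely below WT for 5 (Cd3e, Cd3g, Trac, Cd5 and Cd2), against 11.8% of all genes, and entirely above for 0, against 12.7%. The 10 B cell markers summed to 143 to 304 CPM in HDAC1-cKO and 72.4 to 165 CPM in WT. None was at 0 in all libraries, and 0 were called. For 1 of them, Cd79b, HDAC1-cKO lay entirely above WT, against 12.7% of all genes, and for 0 entirely below, against 11.8%. Cd79b measured 18.8, 25.9 and 18.6 CPM against 10.5, 12.4 and 8.69 CPM (edgeR adjusted p = 0.0592). Of 14 myeloid and dendritic cell markers, Csf1r, Cd14, Flt3, Clec9a and S100a8 were at 0 in all libraries, and the list summed to 16.1 to 30.7 CPM against 22.2 to 35.8 CPM. Of the 6 tested, 4 had negative differences. For 1, Cd68, HDAC1-cKO lay entirely above WT, and for 0 entirely below. Cd68 measured 2.48, 6.21 and 5.24 CPM against 2.01, 2.2 and 2.11 CPM (edgeR adjusted p = 0.153). The 10 CD8 T and NK cell markers summed to 343 to 793 CPM against 274 to 1197 CPM, with Ncr1 at 0. Gzma (58.5 to 787 CPM) and Nkg7 (128 to 326 CPM) held most of that sum, and Cd8a had at most 2.55 CPM. In HDAC1-cKO 1 tested marker lay entirely above WT, as did 12.7% of all tested genes, and 0 lay entirely below. It was Cd8b1, at 66.9, 71.4 and 64.6 CPM against 45, 45.4 and 57 CPM (edgeR adjusted p = 0.127). The 8 erythroid and platelet markers summed to 0.828 to 1.63 CPM against 0.82 to 2.47 CPM, with 5 at 0. The 8 stromal and endothelial markers summed to 58 to 81.1 CPM against 64.1 to 99.4 CPM, with 4 at 0. Nearly all of that sum was Pecam1, at 57.7 to 80.3 CPM against 63.3 to 98.4 CPM. The other 7 were under 1 CPM in every library. The part of other cells in the results below was not tested, and fewer cells of a type cannot be told apart from less RNA per cell.

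**Figure D1:**
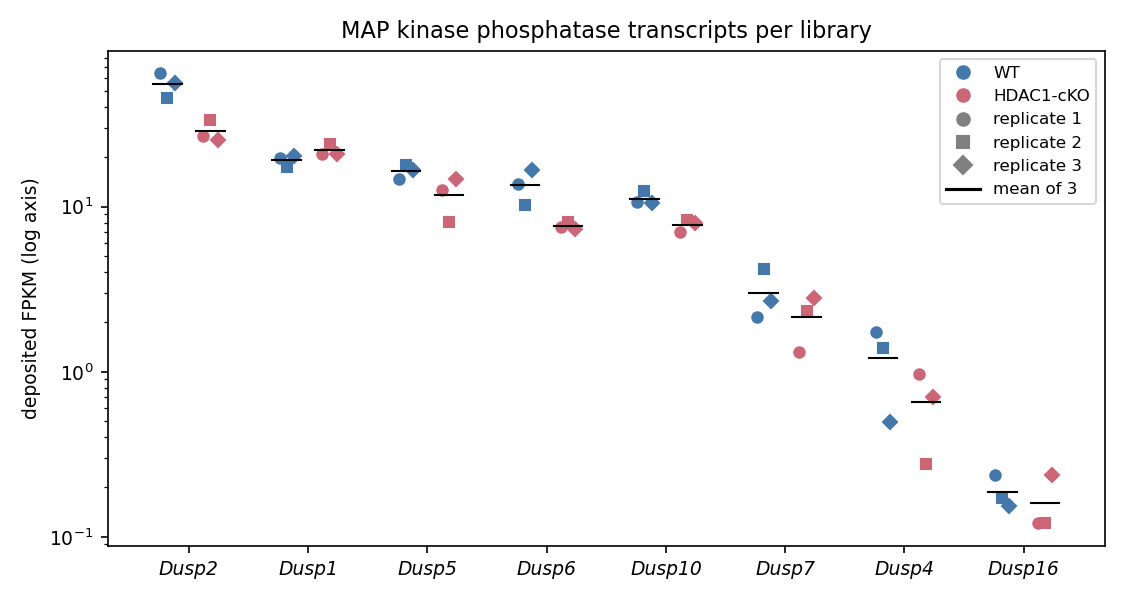
Deposited FPKM of the 8 members in each library on a log axis, coloured by genotype with 1 symbol per replicate number, and the mean of each group as a short line. The Dusp2, Dusp6, Dusp10 and Dusp5 points of HDAC1-cKO lie below those of WT, those of Dusp1 lie above, and Dusp4, Dusp7 and Dusp16 overlap.

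Among the nuclear enzymes, Dusp2 (also called PAC-1, chr2:127336159-127338376, plus strand) was the highest member in both groups. It measured 26.9, 33.7 and 25.3 FPKM in HDAC1-cKO replicates 1, 2 and 3 and 64.3, 45.5 and 56.2 FPKM in WT. Every HDAC1-cKO library lay below every WT library, and the nearest pair were HDAC1-cKO replicate 2 and WT replicate 2. The means were 28.6 ± 4.48 and 55.4 ± 9.43 FPKM (SD, n = 3 each), a log2 difference of -0.94 ± 0.17 (SE, HDAC1-cKO minus WT), which is the value it was chosen by. Without HDAC1-cKO replicate 2 the difference was -1.09.

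Dusp1 (MKP-1, chr17:26505590-26562128, minus strand) encodes a nuclear phosphatase that prefers p38 and JNK. It measured 20.9, 23.9 and 20.9 FPKM in HDAC1-cKO and 19.7, 17.5 and 20.4 FPKM in WT. All HDAC1-cKO values lay above all WT values, though the groups were separated by less than the spread within either. This gave a log2 difference of 0.20 ± 0.13 with a 95% interval of -0.10 to 0.49 (edgeR adjusted p = 0.502). It was thus not called. An 11-base end of its exons, 0.332% of them, overlaps Ergic1 on the other strand.

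Dusp5 (chr19:53529109-53542431, plus strand), whose enzyme is specific for ERK and holds it in the nucleus, measured 12.6, 8.12 and 14.7 FPKM in HDAC1-cKO. In WT it measured 14.8, 18 and 16.6 FPKM. The groups did not overlap, but HDAC1-cKO replicate 3 and WT replicate 1 were next to each other. The log2 difference was -0.48 ± 0.22, with a 95% interval of -0.98 to 0.02 (edgeR adjusted p = 0.317). The low HDAC1-cKO value came from replicate 2, and without that library the difference was -0.28. An antisense gene, AC137853.2, overlaps 22.1% of the Dusp5 exon bases and held 0 to 0.472 CPM. Because the libraries keep no strand, reads in that stretch cannot be assigned to either gene.

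Dusp4 (MKP-2, chr8:34807297-34819894, plus strand), a nuclear relative of Dusp1, was low and varied widely. It measured 0.972, 0.278 and 0.706 FPKM in HDAC1-cKO and 1.73, 1.4 and 0.496 FPKM in WT. The groups overlapped, and within each the highest library exceeded the lowest 3.48-fold in HDAC1-cKO and 3.52-fold in WT. The log2 difference of -0.90 ± 0.57 was close in size to that of Dusp2, but its 95% interval ran from -2.22 to 0.42 (edgeR adjusted p = 0.494). Its raw counts ranged from 29 to 247.

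Of the cytoplasmic ERK phosphatases, Dusp6 (MKP-3, chr10:99263231-99267489, plus strand) came closest to Dusp2. It measured 7.51, 8.04 and 7.33 FPKM in HDAC1-cKO and 13.7, 10.2 and 16.6 FPKM in WT. The 3 HDAC1-cKO libraries were nearly alike and all lay below the WT libraries, which spread 1.62-fold. The means were 7.63 ± 0.368 and 13.5 ± 3.2 FPKM (SD, n = 3 each), 1.76-fold lower in HDAC1-cKO. The log2 difference was -0.81 ± 0.19, with a 95% interval of -1.25 to -0.38 (edgeR adjusted p = 0.0724), so that it missed the threshold of 0.05. It passed with DESeq2 (adjusted p = 0.00263), with limma-voom with sample weights (adjusted p = 0.0329) and when only genes with at least 10 CPM in 3 libraries were tested (adjusted p = 0.0475). Over all alternatives its adjusted p ran from 0.00263 to 0.233.

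Dusp7 (chr9:106368632-106375724, plus strand), the other cytoplasmic enzyme, measured 1.32, 2.32 and 2.79 FPKM in HDAC1-cKO and 2.15, 4.18 and 2.68 FPKM in WT. The groups overlapped, with WT replicate 1 below 2 of the 3 HDAC1-cKO libraries. Its log2 difference was -0.49 ± 0.35, with a 95% interval of -1.29 to 0.31 (edgeR adjusted p = 0.539).

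The JNK and p38 phosphatase gene Dusp10 (MKP-5, chr1:184013302-184075636, plus strand) measured 6.99, 8.32 and 8.01 FPKM in HDAC1-cKO and 10.6, 12.4 and 10.5 FPKM in WT. The groups did not overlap, and the highest library exceeded the lowest 1.19-fold in HDAC1-cKO and 1.18-fold in WT. The means were 7.77 ± 0.692 and 11.2 ± 1.06 FPKM (SD, n = 3 each), 1.43-fold lower in HDAC1-cKO. The log2 difference was -0.52 ± 0.15, with a 95% interval of -0.85 to -0.18 (edgeR adjusted p = 0.118). Like Dusp6 it passed with DESeq2 (adjusted p = 0.0188) and limma-voom (adjusted p = 0.0348), within a range of 0.0188 to 0.334 over all alternatives. Dusp16 (MKP-7, chr6:134715468-134792625, minus strand), which shares the preference for JNK and p38, was the lowest member. It measured 0.121, 0.122 and 0.238 FPKM in HDAC1-cKO and 0.238, 0.172 and 0.153 FPKM in WT, from 30 to 93 reads. The groups overlapped, and the log2 difference was -0.24 ± 0.43 with a 95% interval of -1.23 to 0.75 (edgeR adjusted p = 0.845). A pair of further family members, Dusp8 and Dusp9, were under 1 CPM in every library and were not tested.

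**Figure D2:**
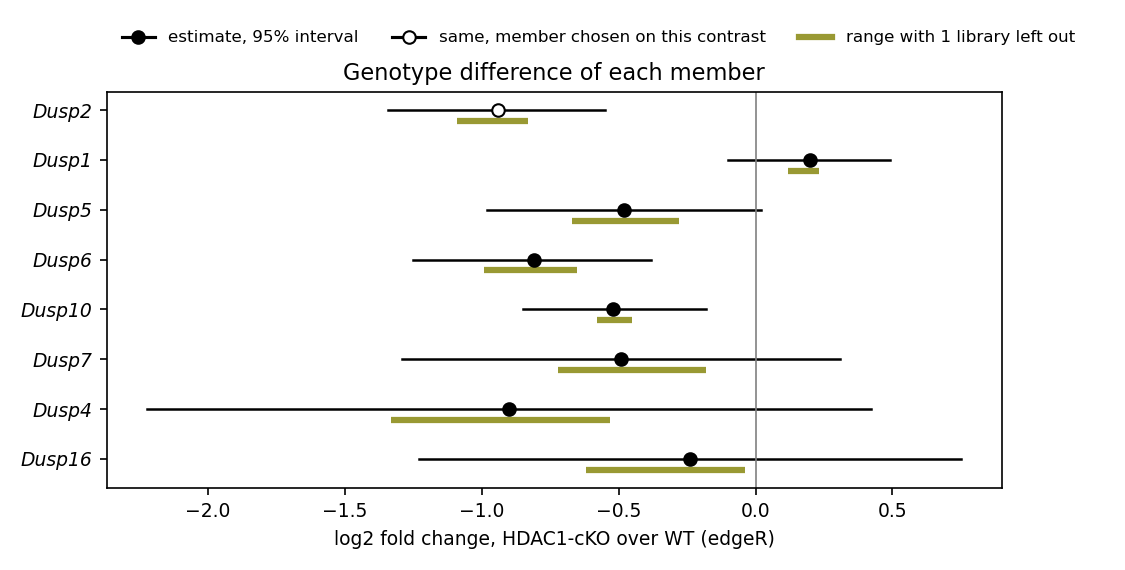
Log2 difference of each member between HDAC1-cKO and WT from edgeR, with 95% intervals as thin lines, the range with 1 library left out as thick lines and an open circle for Dusp2. Dusp2 was chosen by this value, so its line is no test. Dusp6 at -0.81 and Dusp10 at -0.52 have intervals below 0, and those of Dusp1, Dusp4, Dusp5, Dusp7 and Dusp16 include 0.

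All 8 members passed the low-count filter, which left 15519 genes. Of the 7 relatives, 0 were called lower by edgeR at an adjusted p under 0.05, against 0.992% of all tested genes, and 0 were called higher, against 0.979%. At an unadjusted p under 0.05, 2 of the 7 (Dusp6 and Dusp10) were lower, against 8.39% of all genes, and 0 were higher. DESeq2 called the same 2 members lower, against 4.29% of genes, and so did limma-voom with sample weights, against 5.17%. With the filter of at least 10 CPM in 3 libraries, edgeR called Dusp6 alone, against 2.69%. The HDAC1-cKO libraries lay entirely below WT in 3 of the 7 (Dusp5, Dusp6 and Dusp10), against 11.8% of all genes, and entirely above in 1 (Dusp1), against 12.7%. The relatives had 6 negative log2 differences and 1 positive, with a median of -0.49, where the median of all tested genes was -0.002. No member changed sign in any of the alternatives run. Without HDAC1-cKO replicate 2, Dusp6 stood at -0.86 (adjusted p = 0.0765), Dusp10 at -0.58 (adjusted p = 0.0772) and Dusp1 at 0.12. After the GC trend of every library had been taken out by offsets, the values were -0.79 for Dusp6, -0.53 for Dusp10 and 0.14 for Dusp1.

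The order of levels was similar in both groups at its ends and tighter in HDAC1-cKO at its top. In WT, Dusp2 at 55.4 FPKM lay clear of Dusp1 at 19.2 FPKM. Dusp5, Dusp6 and Dusp10 followed at 16.5, 13.5 and 11.2 FPKM, and each neighbouring pair from Dusp1 to Dusp10 had overlapping ranges. Dusp7 at 3 FPKM, Dusp4 at 1.21 FPKM and Dusp16 at 0.188 FPKM came last, each apart from the next. In HDAC1-cKO, Dusp2 at 28.6 FPKM was nearer to Dusp1 at 21.9 FPKM, though still apart from it, and Dusp1 was apart from Dusp5 at 11.8 FPKM. Dusp5, Dusp10 and Dusp6 overlapped as neighbours, and the 3 lowest kept their order. Among all tested genes Dusp2 ranked at percentile 87 in WT and 79.2 in HDAC1-cKO, and Dusp1 at 73.5 and 75.5.

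The summed FPKM of the 8 members was 77.3, 84.8 and 80 in HDAC1-cKO and 127, 109 and 124 in WT, so that the HDAC1-cKO mean was 67.2% of the WT mean. These sums include Dusp2 and are a description. Without Dusp2 they were 50.4, 51.1 and 54.7 FPKM against 62.9, 63.8 and 67.4 FPKM, 80.5% of WT, and the groups still did not overlap. By class, the cytoplasmic ERK enzymes summed to 59.3% of WT and the JNK and p38 enzymes to 69.9%, each with no overlap between groups. The nuclear enzymes summed to 68.3% of WT with Dusp2. Without it they measured 34.5, 32.3 and 36.3 FPKM in HDAC1-cKO and 36.2, 36.9 and 37.5 FPKM in WT, 93.2% of WT, and the groups overlapped. Shares of the sum follow the chosen gene in the same way and are also a description. Dusp2 gave 34.8%, 39.8% and 31.6% of the summed FPKM in HDAC1-cKO and 50.6%, 41.6% and 45.5% in WT. Dusp1 gave 27%, 28.2% and 26.1% against 15.5%, 16% and 16.5%. The other 6 members had overlapping shares. Of the sum without Dusp2, Dusp1 gave 41.5%, 46.8% and 38.2% in HDAC1-cKO and 31.3%, 27.4% and 30.3% in WT. The ratio of Dusp2 to Dusp1 FPKM was 1.29, 1.41 and 1.21 in HDAC1-cKO and 3.27, 2.61 and 2.75 in WT.

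**Figure D3:**
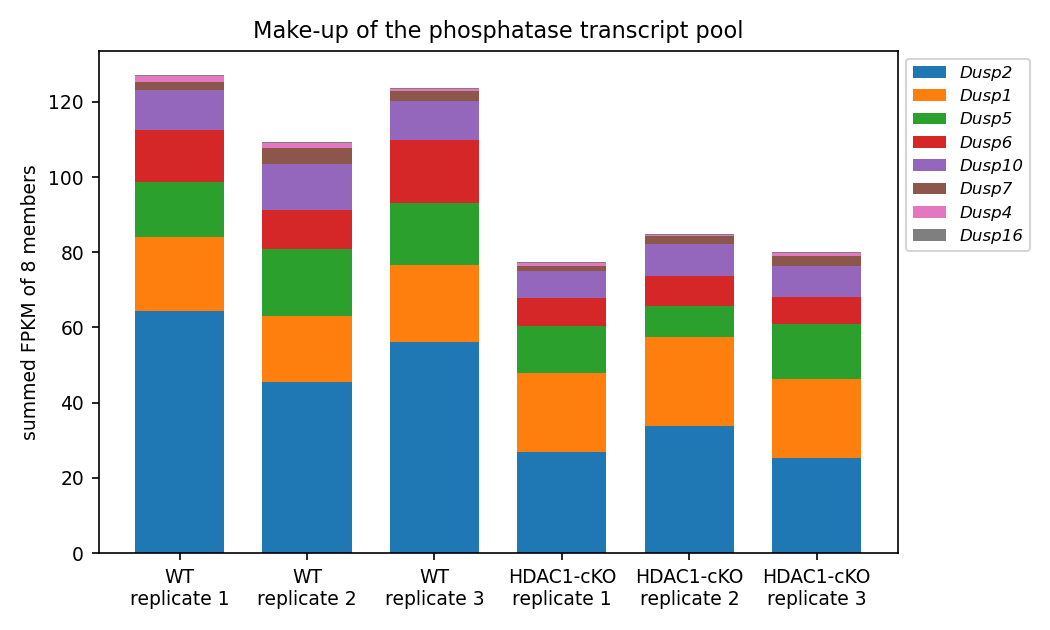
Stacked bars of the FPKM of the 8 members in each library, on an axis from 0. The HDAC1-cKO bars reach 77.3 to 84.8 FPKM and the WT bars 109 to 127 FPKM, and the Dusp2 segment differs most in height.

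The profile of each member over the 6 libraries was compared with that of Dusp2 as the root-mean-square difference of centred log2 CPM values, where 0 means identical. Dusp6 was nearest at 0.187 and Dusp10 next at 0.323, while Dusp4 was farthest at 0.848 and Dusp1 lay at 0.581. The Dusp2 profile holds the genotype difference it was chosen by. Nearness to it therefore partly restates each member's own difference between genotypes and is a description only. Among 6300 protein-coding genes with a mean of at least 16 CPM, the 5 nearest to Dusp2 included Adprh (0.148), Stap1 (0.158), Evi2a (0.159) and Atg7 (0.168). Adprh, which encodes an ADP-ribosylhydrolase, measured 35.1, 44.5 and 34.4 FPKM in HDAC1-cKO and 70.1, 70.4 and 73.8 FPKM in WT. These genes were picked for their likeness, so their difference between genotypes is not evidence of its own.

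Other phosphatases that act on MAP kinases or carry the Dusp name were given by list. Of 17 atypical dual-specificity phosphatases, 9 were tested. By edgeR 1 was called higher, against 0.979% of all genes, and 0 lower, against 0.992%, with a median log2 difference of 0.01. The called gene was Dusp3 (VHR, chr11:101971143-101987013, minus strand), a small phosphatase of ERK and JNK. It measured 3.81, 1.33 and 2.77 FPKM in HDAC1-cKO and 0.636, 0.733 and 0.581 FPKM in WT, and every HDAC1-cKO library lay above WT. Its log2 difference was 2.02 ± 0.37 (edgeR adjusted p = 0.0394). Without HDAC1-cKO replicate 2 it was 2.33 (adjusted p = 0.00844), but the call ended when any other single library was left out (adjusted p up to 0.158). Of its 50-base stretches 11.2% also occur in other genes, so part of its counts is uncertain. Dusp11, a phosphatase of RNA 5′ ends, measured 12.6, 10.8 and 14.5 FPKM against 20.1, 18.6 and 19 FPKM (log2 difference -0.61 ± 0.13, edgeR adjusted p = 0.0605). Of the 3 tyrosine phosphatases with a kinase interaction motif, 2 were tested and 0 called. Ptpn7, the haematopoietic member, measured 63.9, 79.5 and 55.8 FPKM against 80, 74.3 and 83 FPKM (edgeR adjusted p = 0.438), a level above that of Dusp2 in both groups. Ptpn5 had only 12, 5 and 0 reads against 27, 41 and 24, at most 0.745 CPM. Its log2 difference was -1.84 ± 0.90 (edgeR adjusted p = 0.361).

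Kinases and scaffolds of the pathway followed by list. By edgeR, 0.992% of all tested genes were called lower and 0.979% higher. Of 10 MAP kinases tested, 0 were called, with a median log2 difference of -0.11. Mapk7, which encodes ERK5, had a log2 difference of 0.60 ± 0.22 (edgeR adjusted p = 0.209). Of 7 MAP kinase kinases, 0 were called by edgeR, and DESeq2 called 1 higher, where it called 698 of all genes higher. Map2k6, an activator of p38, had the lowest p, at a log2 difference of 1.09 ± 0.32 (edgeR adjusted p = 0.127), and Map2k5, the activator of ERK5, stood at -0.24 ± 0.15 (edgeR adjusted p = 0.474). Of 17 RAS, RAF and MAP3 kinase genes, 0 were called by edgeR, with Map3k8 at -0.62 ± 0.16 (edgeR adjusted p = 0.0978) and Hras at 0.74 ± 0.22 (edgeR adjusted p = 0.124). At an unadjusted edgeR p under 0.05, 4 were lower, against 8.39% of all genes, and 1 was higher. HDAC1-cKO lay entirely below WT in 4 (Rasgrp1, Map3k2, Map3k5 and Map3k8), against 11.8%, and entirely above in 2, against 12.7%. DESeq2 called 3 lower, against 4.29%, and 1 higher, and limma-voom 2 lower, against 5.17%, and 1 higher. Of 8 scaffold genes tested, 0 were called, with Arrb1 at 0.94 ± 0.32 (edgeR adjusted p = 0.174) and Lamtor2 at 0.51 ± 0.20 (edgeR adjusted p = 0.231).

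Among negative regulators of RAS and ERK that are not phosphatases, 9 of 13 were tested. By edgeR 1 was called lower, against 0.992% of all genes, and 0 higher, with a median log2 difference of -0.08. The called gene was Rasa3 (chr8:13566948-13677603, minus strand), a GTPase-activating protein that turns off RAS and RAP1. It measured 16, 12.8 and 14.9 FPKM in HDAC1-cKO and 21.3, 27.5 and 26.9 FPKM in WT, with no overlap. The log2 difference was -0.79 ± 0.14 (edgeR adjusted p = 0.037). Without HDAC1-cKO replicate 2 it was -0.71 (adjusted p = 0.0364), and the call ended when any other single library was left out (adjusted p up to 0.157). Rasal3, a related T cell protein, had a log2 difference of -0.39 ± 0.18 (edgeR adjusted p = 0.332).

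Genes listed as transcription targets of ERK and serum response factor (SRF) were compared as RNA, and ERK activity itself was not tested. Of 19 tested, 0 were called lower by edgeR, against 0.992% of all genes, and 0 higher. At an unadjusted p under 0.05, 7 were lower, against 8.39% of all genes, and 1 was higher. The median log2 difference was -0.36. DESeq2 called 4 of them lower, against 4.29% of all genes, and limma-voom 6, against 5.17%. With GC offsets 3 were called lower by edgeR, where 290 of all genes were. Without HDAC1-cKO replicate 2 the number was 2, against 368 of all genes. With the replicate block it was 0, against 31 of all genes. Phlda1 measured 0.652, 0.445 and 0.372 FPKM in HDAC1-cKO and 1.27, 1.6 and 1.56 FPKM in WT, a log2 difference of -1.58 ± 0.35 (edgeR adjusted p = 0.0609). Btg2, an antiproliferative gene, measured 20.9, 25.9 and 14.9 FPKM against 32.3, 33.2 and 38.6 FPKM, a log2 difference of -0.75 ± 0.20 (edgeR adjusted p = 0.102). The groups did not overlap for either. Of 15 substrates and downstream kinases tested, 0 were called, 12 had negative differences, and the median was -0.17. Rps6ka5 stood at -0.54 ± 0.25 (edgeR adjusted p = 0.330) and Mapkapk3 at -0.25 ± 0.12 (edgeR adjusted p = 0.348). In the heat shock and handling stress list, 0 of 7 tested genes were called, and the list summed to 3413 to 4585 CPM in HDAC1-cKO and 3160 to 4743 CPM in WT.

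**Figure D4:**
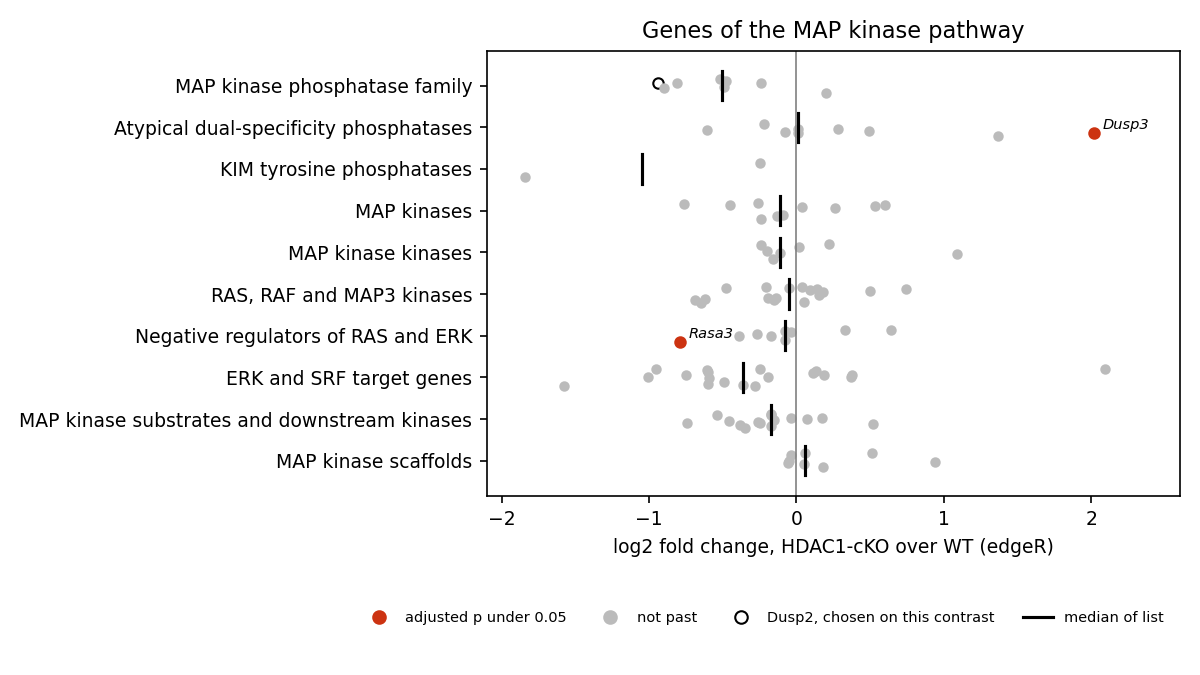
Log2 difference between HDAC1-cKO and WT of each tested gene of 10 MAP kinase lists, with the median of each list as a black line, called genes in red and Dusp2 as an open circle. Among the genes other than Dusp2, which was chosen on this comparison, Dusp3 at 2.02 and Rasa3 at -0.79 are past the threshold. The ERK and SRF targets have a median of -0.36. The median line of the phosphatase family, at -0.50, includes Dusp2, and the 7 relatives without it have a median of -0.49.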

How the data were processed

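Smart-seq2 cDNA of 500 cells per library, made with a kit that does not mark strand, was read as 50-base single reads, per the labels' protocols. The authors deposited raw whole-number counts per gene and FPKM values for the same 6 libraries. STAR 2.5.2b and Picard 2.19.2 are named, with R 3.6.1 and DESeq2 1.24.0, per the submitters' processing notes. The role of each tool and the read counter were not given in the sources used here. Across 10890 genes the deposited FPKM equalled the count times a constant per gene, divided by a DESeq2 size factor per library. They thus compare libraries as well as genes. Per the series text, each library is a biological replicate from 2 pooled mice. No 2 libraries agreed within sampling noise. Depth ran from 19956153 to 55900237 counts, and reads carry no molecular identifiers.

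Counts were filtered with filterByExpr, which kept at least 99.92% of each library, scaled by TMM and tested with edgeR 4.0.16 (robust quasi-likelihood F test, two-sided, R 4.3.3), with genotype as the term. Benjamini-Hochberg adjustment ran over 15519 genes, and an adjusted p under 0.05 was called. Standard errors follow from each fold change and p. CPM used TMM-scaled totals. Alternatives were other scaling, no or a stricter low-count filter, DESeq2 1.42.0, limma-voom (limma 3.58.1), limma on log2(FPKM + 1) and log2(FPKM + 0.1), GC offsets, a replicate block, another threshold and leaving out each library. The edgeR, DESeq2 and limma steps were run on simulated data, and the share of changes recovered is not reported here.

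Named genes were the members, Hdac1, the called genes of each list (or its 2 lowest-p genes where fewer than 2 were called) and the 5 genes most like Dusp2. A few genes that this rule names are not reported here. The members and lists were chosen with earlier results of these data known. Gene coordinates are those of the deposited table (GRCm38), exon overlaps come from GENCODE M21 and promoters from RefSeq (GRCm38.p6). A planned comparison of protein sequences was not made here. Python 3.11.15 with matplotlib 3.10.9 drew the figures.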

Additional observations from a re-analysis of the deposited data

How the results depend on the processing

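Of 798 recomputed values over all results and alternatives, 679 stayed on their side of the threshold or within the tolerance, 70 moved, 28 newly passed the threshold, 21 no longer passed and 0 reversed. The 679 include counts that were 0 in both settings and genes called in neither, so they are no measure of stability. Against 0 relatives of Dusp2 called lower by edgeR, the filter of at least 10 CPM gave 1, DESeq2 2, limma-voom 2 and an adjusted p under 0.10 gave 1. Over all genes, 152 were called higher and 154 lower. The numbers were 698 and 665 with DESeq2, 747 and 802 with limma-voom, 243 and 290 with GC offsets, 405 and 413 at an adjusted p under 0.10, and 243 lower with no low-count filter. Leaving out HDAC1-cKO replicate 2 gave 258 higher and 368 lower. Leaving out any other single library gave 15 to 26 higher and 10 to 23 lower. A replicate block gave 34 higher and 31 lower and 0 relatives, and it ended the calls of Dusp3 (adjusted p = 0.0894) and Rasa3 (adjusted p = 0.1). The labels say no more than the number, and same-numbered libraries deviated together with correlations of 0.167, -0.001 and -0.094, so the numbers were not taken as pairs. The Dusp3 call also ended with limma on log2(FPKM + 1) (adjusted p = 0.0595). The cause of these shifts was not tested. The differences of Dusp4, with 29 to 247 reads, ran from -1.33 to -0.38, those of Dusp16, with 30 to 93 reads, from -0.62 to -0.02, and those of Dusp7, with 140 to 747 reads, from -0.72 to -0.18.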

Other observations

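Of the atypical dual-specificity phosphatases, 2 more genes had HDAC1-cKO libraries entirely above WT, as did 12.7% of all genes tested, and are named after their values were seen. Dusp23 measured 3.16, 3.71 and 2.85 FPKM in HDAC1-cKO and 0.845, 1.47 and 1.47 FPKM in WT, a log2 difference of 1.37 ± 0.31 (edgeR adjusted p = 0.0654). Dusp12, a phosphatase with a zinc-binding end, measured 11, 12 and 12.4 FPKM against 8.34, 8.65 and 8.28 FPKM, a log2 difference of 0.49 ± 0.16 (edgeR adjusted p = 0.152). Neither passed the threshold.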
